A study of Xenopus laevis x Xenopus muelleri with 6 samples.

Results

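The genes described here build the ribosome inside mitochondria, carry proteins into mitochondria, or trim and degrade proteins there. Members were the probe sets with exactly 1 gene symbol in the platform annotation whose symbol, without its copy suffix, began with mrpl, mrps, timm or tomm. The symbols tufm, tsfm, gfm1, gfm2, mtif2, mtif3, lonp1, clpp, clpx, pmpca and pmpcb were added by name. This gave 44 of 11485 probe sets, for 41 symbols, and all 44 were tested without a filter on low values. Grouped by symbol, the large ribosomal subunit (mrpl) had 15 probe sets and the small subunit (mrps) 8. Import across the outer membrane had 5, import at the inner membrane 8, peptidases and proteases 7 and translation factors 1. The factors tufm, tsfm, gfm1, gfm2 and mtif2 and the protease lonp1 were not analysed here.

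Mitochondria keep a small genome of their own, and its few proteins are core subunits of the respiratory chain. The mitochondrial ribosome translates them, while nearly all other mitochondrial proteins, the ribosomal ones included, are made in the cytosol. Those proteins pass the TOM complex of the outer membrane and the TIM complexes of the inner membrane, with small Tim chaperones in the space between, and the processing peptidase cuts off their targeting sequence. In the testis the machinery serves dividing germ cells and maturing sperm, and in mice the loss of the matrix protease gene Clpp makes males infertile.

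All 6 testes came from sexually mature hybrid frogs, raised from eggs, of a Xenopus laevis mother (Cape of South Africa) and a Xenopus muelleri father (Swaziland). The 3 normal and the 3 sex-reversed testes were hybridised to 1 array each, as biological replicates by their titles. The labels do not say whether each testis is from its own animal, and the p-values cover only the spread between these 6 samples. The sources used here do not give the agent or cross behind the sex reversal, the genetic sex or the age. Values are log2 expression, and a difference of 1 is 2-fold. The median of an array lay between 5.25 and 5.31.

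The tissue label was checked against marker lists, though a level also depends on how strongly the probes bind. Mean levels over the 6 arrays lay above the median of all probe sets for 6 of 6 germ line and 4 of 4 meiosis probe sets. They did so for 3 of 9 sperm and 2 of 7 Sertoli cell probe sets, and 5 of each of these lists lay below the 25th percentile. The counts were 8 of 9 for smooth muscle, 3 of 3 for steroid synthesis, 2 of 10 for erythroid and 2 of 8 for leukocyte markers. Oocyte markers also lay above the median, in 3 of 4 probe sets. Means of 3 of these 4 were higher in sex-reversed testis, and the levels of the groups overlapped. The smooth muscle list was picked out for its values, as the only marker list whose level did not overlap between the groups. Its mean deviation from its own average lay between -0.39 and -0.07 on normal arrays and between 0.10 and 0.50 on sex-reversed ones. Means were higher in sex-reversed testis for 8 of 9 probe sets, beside 51.3% of all probe sets. Taken singly, 0 of the 9 had groups without overlap, beside 9.63% of all probe sets. In limma 1 of the 9 had an unadjusted p under 0.05, beside 4.42% of all probe sets. The steroid synthesis markers, 3 probe sets of stard3.S and cyp17a1.L, stood apart on 1 array: their mean deviation was -2.68 for sex-reversed replicate 3 and 0.34 to 0.70 elsewhere. The lowest value of any probe set was 1.93, so no marker could read 0, and these levels do not show detection. The part of these markers in the results below was not tested. In whole testis, fewer cells of a type and less RNA per cell cannot be told apart. X. laevis keeps many genes as L and S copies from its ancestral genomes, and X. muelleri alleles may bind probes designed on X. laevis less well.

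Between sex-reversed and normal testis no member passed an adjusted p of 0.05 in limma, and 0% of all probe sets passed. The smallest adjusted p of a member was 0.997 in limma. At an unadjusted p under 0.05, limma gave 5 of the 44 members (11.4%), beside 4.42% of all probe sets. The 3 higher ones were timm10b.S and both probe sets of pmpca.S, beside 2.26% of all probe sets. The 2 lower ones were mrps34.S and 1 of the 2 probe sets of clpp.L, beside 2.16%. The same test without moderation gave 0 calls, and 1 higher and 2 lower members at an unadjusted p under 0.05. These were largely other members: tomm70.S was the higher one, and mrpl45.L and mrps34.S were the lower ones. Of the 5 members above, only mrps34.S was among them, and its level was low on these arrays.

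Means were lower in sex-reversed testis for 28 members and higher for 16, that is lower for 63.6%, beside 48.7% of all probe sets. The median log2 difference of the members was -0.05, beside 0.01 over all probe sets, and the median absolute difference was 0.23, beside 0.21. Group means were at least 2-fold apart for 2 members (4.55%), timm10b.S and mrpl23.S, beside 2.56% of all probe sets. For 26 members (59.1%) the 95% interval excluded differences beyond 2-fold, beside 62.5% of all probe sets. For the other 18 a 2-fold difference lies inside the interval. Among the 26, timm8b.S, timm10.L, timm10.S, tomm22.L and 1 probe set of mrpl11.S had mean levels below the 25th percentile of all probe sets. At such levels a probe set may respond little to changes in RNA, so these intervals need not exclude a 2-fold difference in RNA. The groups did not overlap for 6 members, 2 higher (background 5.37%) and 4 lower (background 4.26%), together 13.6% of members beside 9.63% of all probe sets.

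**Figure D1:**
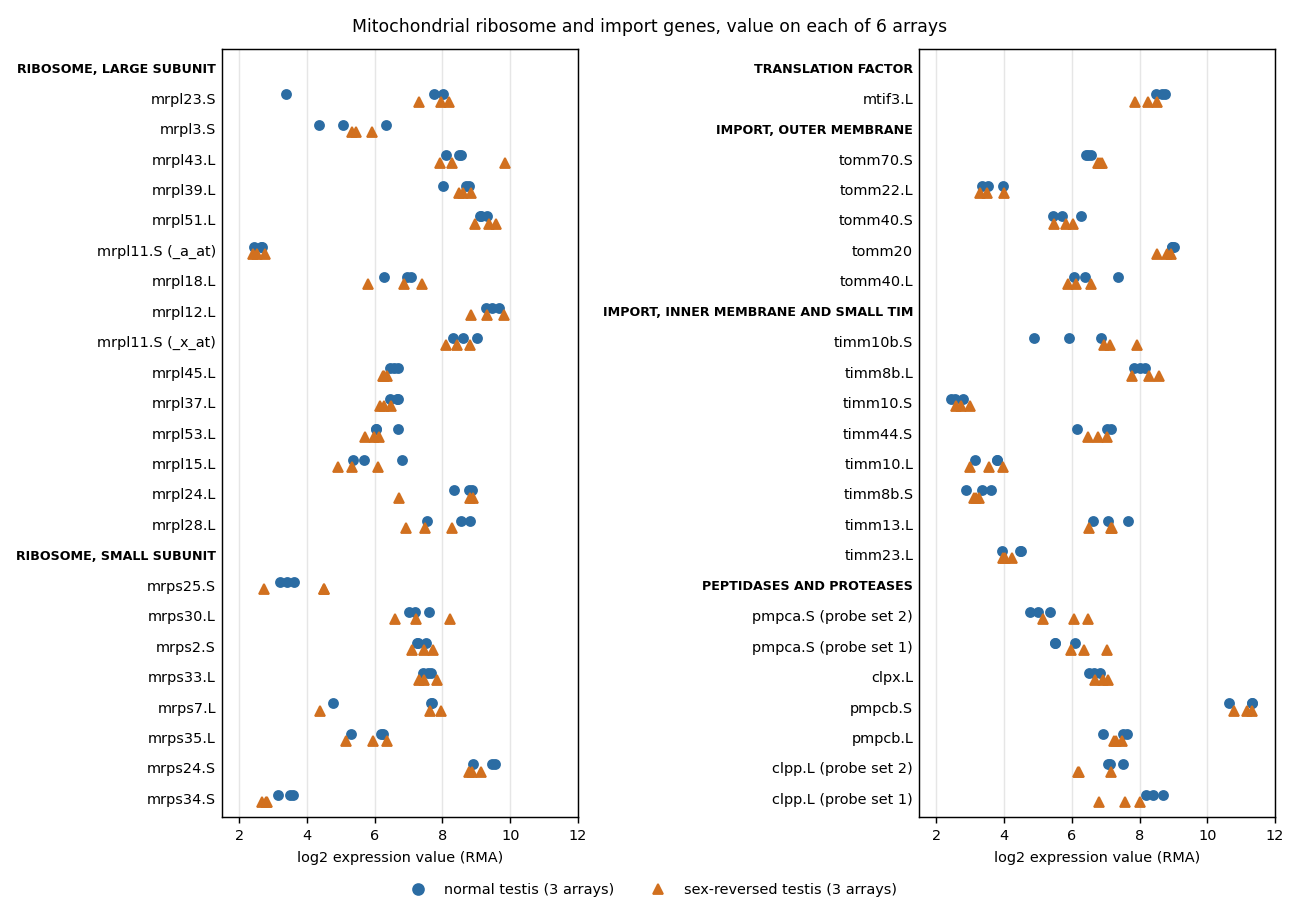
Log2 expression value (x axis) of each member probe set on each array, with 3 normal (circles) and 3 sex-reversed testes (triangles), grouped by role. The groups overlap for all but 6 of the 44 probe sets, and mrpl23.S, mrps7.L, mrpl24.L and mrpl43.L each have arrays far from the rest; levels of different probe sets are not comparable, since probes bind with different strength.

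None of the outer membrane receptors and channel genes passed the test. For tomm70.S, a receptor that takes up carrier proteins, the values were 6.57, 6.47 and 6.42 on the normal arrays and 6.76, 6.88 and 6.83 on the sex-reversed ones. All 3 sex-reversed arrays lay above all normal arrays, and the spread within groups was small, with an SD of 0.08 and 0.06. The log2 difference was 0.34 (SE 0.19, 95% interval -0.11 to 0.79), or 1.27-fold, and limma gave an adjusted p of 0.997. It lay between 0.31 and 0.38 with any 1 array left out.

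The receptor gene tomm20, which binds targeting sequences, ran the other way. Its values were 8.96, 9.03 and 8.95 on the normal arrays and 8.92, 8.50 and 8.80 on the sex-reversed ones, so the groups did not overlap. The highest sex-reversed array lay just under the lowest normal one, and the log2 difference was -0.24 (95% interval -0.72 to 0.25). It was -0.12 once sex-reversed replicate 2 was removed.

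The channel gene tomm40 was read in both copies. The values of tomm40.L were 6.05, 7.35 and 6.39 in normal and 6.11, 6.58 and 5.89 in sex-reversed testis. Its log2 difference of -0.40 rested on normal replicate 2, without which it was -0.03. The copy tomm40.S differed by -0.02 (95% interval -0.69 to 0.65), with values of 5.43 to 6.28 in normal and 5.48 to 6.03 in sex-reversed testis. The receptor gene tomm22.L differed by -0.01 (95% interval -0.66 to 0.64). Its values lay between 3.29 and 4.01, low against the array medians, where a probe set may respond little to changes in RNA.

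The widest gap between group means of any member was that of timm10b.S, which encodes a small Tim protein of the carrier import complex of the inner membrane. It read 5.91, 4.87 and 6.85 on the normal arrays and 7.11, 6.94 and 7.91 on the sex-reversed arrays. All sex-reversed arrays lay above all normal ones, though normal replicate 3 came within 0.1 of sex-reversed replicate 2. The group means were 5.88 ± 0.99 (SD, n = 3) and 7.32 ± 0.52, a log2 difference of 1.45 (SE 0.51, 95% interval 0.26 to 2.63). That is 2.73-fold, with an unadjusted p of 0.0228 and an adjusted p of 0.997 in limma. With any 1 array left out it lay between 0.94 and 1.93, the lower value with normal replicate 2 removed and the higher with normal replicate 3 removed.

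The other inner membrane members stayed near 0. The channel gene timm23.L read 3.93, 4.46 and 4.50 in normal and 4.23, 4.03 and 3.96 in sex-reversed testis, a log2 difference of -0.22 (95% interval -0.78 to 0.33). Its mean level of 4.19 lay below the median over all probe sets (5.25). The small Tim chaperone gene timm8b.L read 8.01, 8.16 and 7.84 in normal and 8.56, 7.78 and 8.27 in sex-reversed testis, a difference of 0.20. The groups overlapped for both. With 1 array left out timm23.L ran from -0.41 (normal replicate 1 removed) to -0.12 (normal replicate 3 removed), and timm8b.L from 0.018 (sex-reversed replicate 1 removed) to 0.41 (sex-reversed replicate 2 removed). The other copy timm8b.S differed by -0.10, and the small Tim chaperone gene timm10 differed by -0.07 in the L copy and 0.17 in the S copy. Values of these 3 probe sets lay between 2.42 and 3.97, low on these arrays. The chaperone gene timm13.L and timm44.S, which ties the import motor to the channel, fell outside the naming rule and lay between -0.16 and -0.03.

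Of the 8 inner membrane probe sets 3 had higher and 5 lower means, with a median of -0.05 and a mean of 0.15. Their mean level was higher on every sex-reversed array (0.05 to 0.11) than on every normal array (-0.12 to 0.01). That order rested on 1 gene: without timm10b.S, taken out after its values were seen, the mean difference of the remaining 7 was -0.03 and the levels of the groups overlapped.

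In the processing peptidase and the ClpXP protease, pmpca.S and clpp.L were each read by 2 probe sets. For pmpca.S, the noncatalytic subunit of the processing peptidase, 1 probe set read 5.51, 6.09 and 5.50 in normal and 7.05, 6.36 and 5.99 in sex-reversed testis. The other read 5.36, 4.77 and 4.996 in normal and 6.07, 6.49 and 5.16 in sex-reversed testis. In both probe sets, replicates 1 and 2 of the sex-reversed group exceeded every normal array, and its replicate 3 fell within the normal range.

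The log2 differences of pmpca.S were 0.77 (95% interval 0.01 to 1.53, unadjusted p = 0.0486 in limma) and 0.87 (95% interval 0.02 to 1.72, unadjusted p = 0.0470 in limma). These are 1.70-fold and 1.82-fold, and each had an adjusted p of 0.997 in limma. Without sex-reversed replicate 3 they were 1.01 and 1.24, and the lowest values with 1 array left out were 0.48 (without replicate 1 of the sex-reversed group) and 0.57 (without replicate 2).

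The catalytic partner pmpcb showed no such difference in either copy. The copy pmpcb.S read 11.31, 10.63 and 11.33 in normal and 11.18, 10.80 and 11.31 in sex-reversed testis, a log2 difference of 0.01 (95% interval -0.63 to 0.65). The copy pmpcb.L differed by -0.02 (95% interval -0.61 to 0.57). Both intervals leave out 2-fold differences.

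Both probe sets of clpp.L, the proteolytic subunit of ClpXP, had lower means in sex-reversed testis. The first read 8.68, 8.19 and 8.40 in normal and 6.81, 7.58 and 8.02 in sex-reversed testis, with no overlap between the groups. The second read 7.51, 7.05 and 7.12 in normal and 6.21, 6.19 and 7.16 in sex-reversed testis, and its sex-reversed replicate 3 fell inside the normal range.

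The log2 differences of clpp.L were -0.95 (SE 0.34, 95% interval -1.73 to -0.17, unadjusted p = 0.0235 in limma) and -0.71 (SE 0.32, 95% interval -1.45 to 0.03, unadjusted p = 0.0582 in limma). In fold these are 1.93 and 1.63, and both had an adjusted p of 0.997 in limma. With 1 array left out they ran from -1.23 to -0.62 and from -1.03 to -0.54, and so kept their sign. The unfoldase gene clpx.L, whose protein feeds substrates to ClpP, differed by 0.23 (95% interval -0.26 to 0.73), with values of 6.64, 6.82 and 6.50 in normal and 6.69, 6.93 and 7.05 in sex-reversed testis. It ran from 0.15 to 0.34 with 1 array left out, the ends being removal of sex-reversed replicates 3 and 1.

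The translation factor that was measured, mtif3.L, helps to start translation on the mitochondrial ribosome. It read 8.76, 8.49 and 8.67 in normal and 8.26, 7.86 and 8.52 in sex-reversed testis. Only sex-reversed replicate 3 lay within the normal range, and the log2 difference was -0.43 (95% interval -0.99 to 0.13, adjusted p = 0.997 in limma). Removal of sex-reversed replicate 2 brought it to -0.25.

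**Figure D2:**
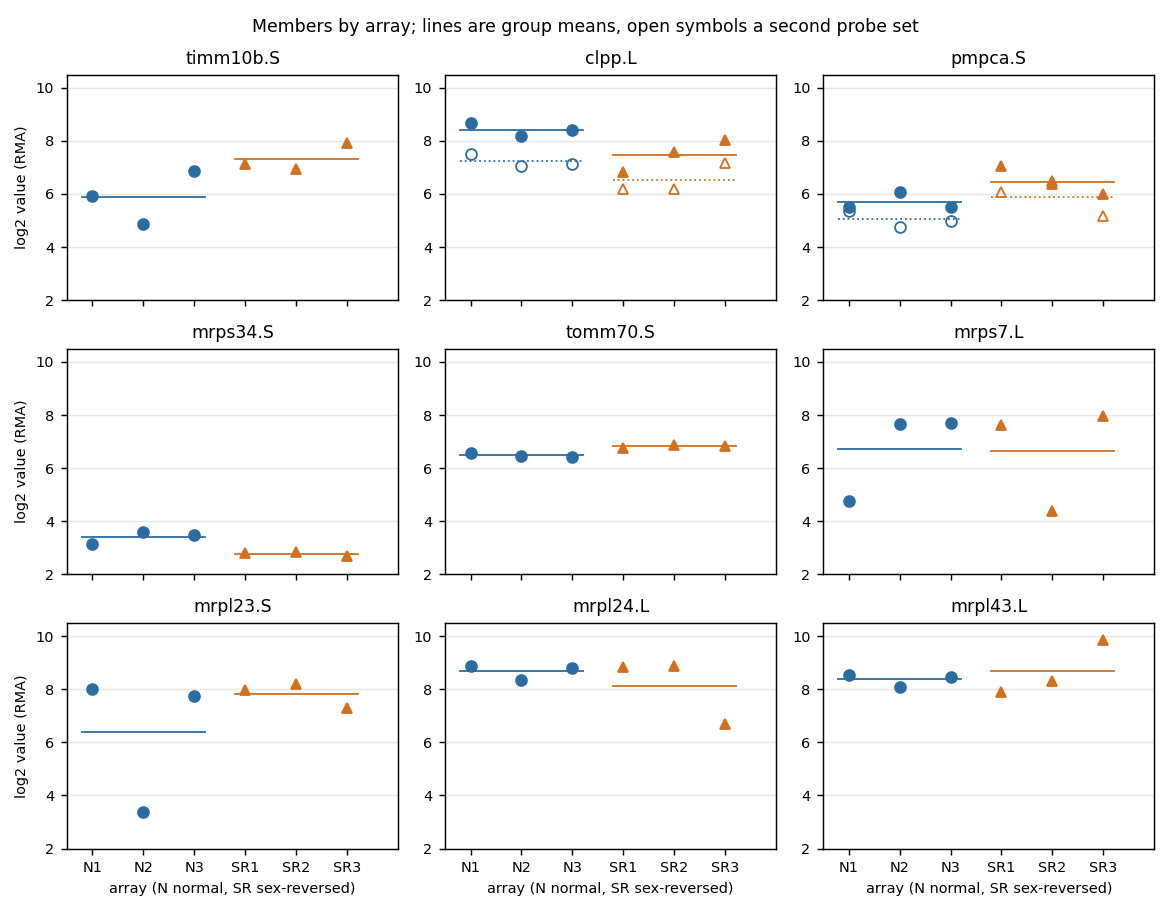
Log2 value (y axis) of 9 member genes on each array (x axis), with lines for group means and open symbols for a second probe set. Sex-reversed arrays lie above normal ones for timm10b.S and tomm70.S and below them for mrps34.S and 1 probe set of clpp.L, while mrps7.L, mrpl23.S, mrpl24.L and mrpl43.L are set apart by 1 or 2 arrays.

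Genes of the large ribosomal subunit were lower on average in 10 of 15 probe sets and higher in 5, with a median log2 difference of -0.14, and 0 reached an unadjusted p under 0.05 in limma. The lowest difference was that of mrpl28.L. It read 8.81, 7.54 and 8.54 in normal and 6.93, 7.47 and 8.28 in sex-reversed testis, a difference of -0.73 (95% interval -1.77 to 0.30), with 2 sex-reversed arrays below all normal ones. The value was -1.11 with normal replicate 2 left out and -0.42 with sex-reversed replicate 1 left out.

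The mitochondria-specific subunit genes mrpl45.L and mrpl37.L were steadier. The protein of mrpl45.L lies at the exit tunnel and holds the ribosome to the inner membrane. Its values were 6.58, 6.70 and 6.45 in normal and 6.28, 6.23 and 6.36 in sex-reversed testis. All sex-reversed arrays lay below all normal arrays, and the log2 difference was -0.29 (SE 0.20, 95% interval -0.74 to 0.17, adjusted p = 0.997 in limma).

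The values of mrpl37.L were 6.66, 6.69 and 6.46 in normal and 6.17, 6.48 and 6.26 in sex-reversed testis, a difference of -0.30 (95% interval -0.78 to 0.18), and here sex-reversed replicate 2 overlapped normal replicate 3. With any 1 array left out, mrpl45.L lay between -0.35 and -0.23 and mrpl37.L between -0.39 and -0.23. For mrpl53.L, another mitochondria-specific subunit, the difference of -0.31 was -0.09 without normal replicate 1. That of mrpl15.L, a subunit with a bacterial counterpart, was -0.50 and -0.08 without normal replicate 3.

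The higher members of the large subunit each leaned on 1 array. The gene mrpl23.S, for a protein at the exit tunnel, read 8.02, 3.38 and 7.76 in normal and 7.97, 8.18 and 7.30 in sex-reversed testis. Normal replicate 2 lay 3.92 below the next lowest array, a 15.1-fold gap. The log2 difference of 1.43 (95% interval -1.21 to 4.07) became -0.08 without that array.

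For mrpl43.L the array apart was sex-reversed replicate 3, which read 9.85 where the others read 7.91 to 8.54. Its difference of 0.32 became -0.27 without that array. The same array was the low one for mrpl24.L, a subunit with a bacterial counterpart, at 6.70 against 8.35 to 8.89. There the difference of -0.54 (95% interval -1.86 to 0.79) became 0.18. For mrpl3.S, whose values were 5.06, 4.36 and 6.33 in normal and 5.45, 5.92 and 5.32 in sex-reversed testis, 0.32 became -0.13 without normal replicate 2. On sex-reversed replicate 3 the steroid synthesis markers also stood apart, as given above, and their part in these values was not tested.

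The other 6 probe sets of the large subunit, mrpl12.L, mrpl18.L, mrpl39.L, mrpl51.L and 2 of mrpl11.S, fell outside the naming rule. Their differences lay between -0.20 and 0.14, and the smallest unadjusted p among them in limma was 0.513. The readings of mrpl11.S were singled out after their values were seen. One, whose ID marks possible cross-hybridisation, read 8.09 to 9.02 over the 6 arrays. The other stayed at 2.40 to 2.76, where the array minima are 1.93 to 2.09, so it could show little change.

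Small subunit genes had lower means in 5 of 8 probe sets and higher means in 3, with a median log2 difference of -0.05. The gene mrps34.S, for a mitochondria-specific subunit, read 3.13, 3.60 and 3.49 in normal and 2.79, 2.83 and 2.68 in sex-reversed testis. All sex-reversed arrays lay below all normal ones. The means were 3.41 ± 0.25 (SD, n = 3) and 2.77 ± 0.08, and the difference was -0.64 (SE 0.22, 95% interval -1.15 to -0.14, unadjusted p = 0.0194, adjusted p = 0.997 in limma). It lay between -0.78 and -0.54 with any 1 array left out. These values lie below the 25th percentile of mean levels over all probe sets (3.72). No signal over background is at hand for them, which makes the fold uncertain.

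The gene mrps24.S read 9.56, 8.90 and 9.47 in normal and 8.86, 8.79 and 9.13 in sex-reversed testis, a difference of -0.38 (95% interval -0.97 to 0.20). Normal replicate 2 lay among the sex-reversed arrays. The value was -0.59 with that array removed and -0.26 with normal replicate 1 removed. The gene mrps25.S read 3.20, 3.62 and 3.42 in normal and 4.50, 4.50 and 2.72 in sex-reversed testis. Its mean level of 3.66 lay below the 25th percentile over all probe sets (3.72), which makes the fold uncertain. Its sex-reversed replicates 1 and 2 lay above all normal arrays and replicate 3 below them. The difference was 0.49 (95% interval -0.62 to 1.61), and with 1 array left out it ran from 0.20 (sex-reversed replicate 2 removed) to 1.08 (replicate 3 removed).

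The widest spread in the small subunit was that of mrps7.L, which encodes a conserved protein of the subunit's head. It read 4.77, 7.67 and 7.70 in normal and 7.63, 4.38 and 7.96 in sex-reversed testis. The arrays fell into 2 levels, 4 of them between 7.63 and 7.96 and 1 of each group below 4.8. Its log2 difference of -0.05 (95% interval -2.64 to 2.53) ran from -1.02 to 1.08 with 1 array left out. The range over the arrays was 12.0-fold. The remaining members mrps2.S, mrps30.L, mrps33.L and mrps35.L, outside the naming rule, lay between -0.10 and 0.08. The protein of mrps30.L sits in the large subunit in mammals despite its name. Its probe set, with a difference of 0.08, was counted with the small subunit by its symbol.

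**Figure D3:**
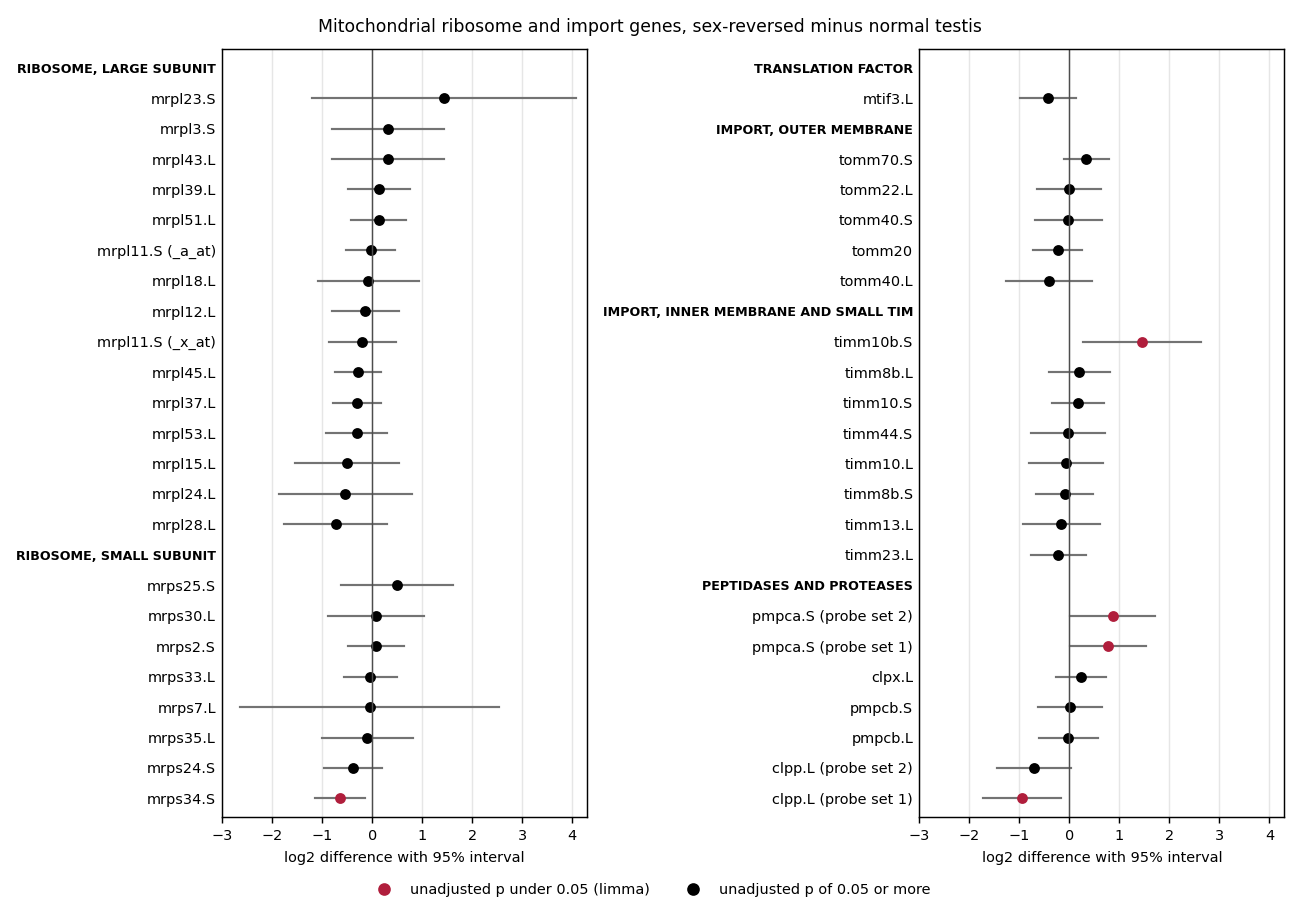
Log2 difference of each member probe set, sex-reversed minus normal, with its 95% interval from limma (x axis), grouped by role. Red points have an unadjusted p under 0.05; of 44 intervals 5 leave out 0, and no member passed after adjustment over all 11485 probe sets.

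Spread between arrays was much like that over all probe sets, though 36 of the 44 members lay above the median level of all probe sets. Cytosolic ribosomal and oxidative phosphorylation genes, given below, had a narrower median range. The median range over the 6 arrays was 1.93-fold for the members and 1.89-fold over all probe sets, and 4 members (9.09%) ranged over at least 4-fold, beside 8.18% of all probe sets. Those were mrpl23.S, mrps7.L, timm10b.S and mrpl24.L. For 7 members more than 50% of the range lay between 1 array and its nearest neighbour. Leaving out 1 array moved the difference of 39 of the 44 members by over 1.5 times in at least 1 case.

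Repeated readings of a gene gave a mixed picture. For the 3 symbols with 2 probe sets (clpp.L, pmpca.S and mrpl11.S) the differences had the same sign and lay within 0.24 of each other. Of the 4 genes read in both the L and S copy (pmpcb, timm10, timm8b and tomm40) 1 had the same sign in both, with gaps of 0.03 to 0.38. Cross-hybridisation between such copies was not tested.

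The level of the whole list moved little across the testes. The members' mean deviation from their own averages ran from -0.09 (normal replicate 2) to 0.10 (normal replicate 3) on the normal arrays. On the sex-reversed ones it ran from -0.012 to -0.003. On normal replicate 2 the median deviation was 0.06, and 25 of 44 members lay above their own average. Without mrpl23.S and mrps7.L the mean deviations lay between -0.03 and 0.07 on normal and between -0.05 and 0.02 on sex-reversed arrays. All probe sets stayed at -0.004 to 0.008, where the shared distribution from RMA holds them. On normal and sex-reversed arrays cytosolic ribosomal proteins ran from -0.11 to 0.09 and from -0.10 to 0.09. Oxidative phosphorylation genes ran from -0.05 to 0.14 and from -0.10 to 0.05. The ribosomal subunits did not share 1 order. On normal replicate 1 the large subunit stood at 0.19 and the small subunit at -0.21, while on normal replicate 2 they stood at -0.34 and 0.23. Much of this came from 2 genes. Without mrpl23.S the large subunit stood at 0.14 and -0.10 on these arrays, and without mrps7.L the small subunit stood at 0.03 and 0.13; both genes were taken out after their values were seen.

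**Figure D4:**
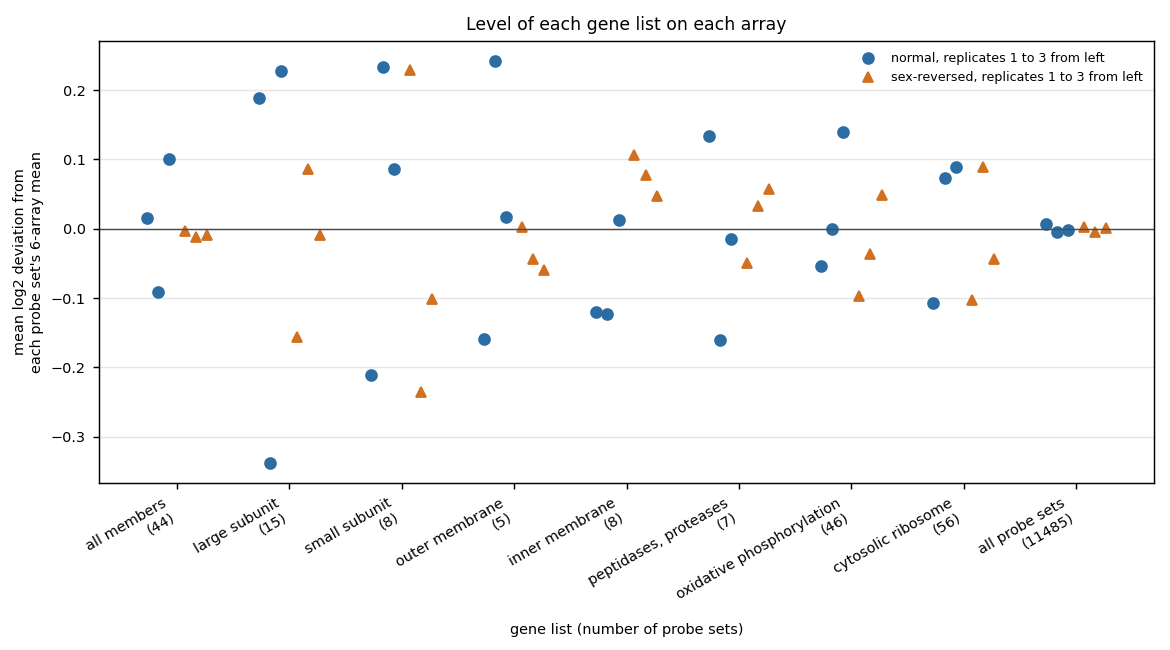
Mean log2 deviation of each gene list from its probe sets' own 6-array means (y axis) on the normal (circles) and sex-reversed arrays (triangles, replicates 1 to 3 from left to right). The groups overlap for all lists shown but the inner membrane list, whose order rests on timm10b.S.

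Cytosolic ribosomal proteins and oxidative phosphorylation genes gave a comparison with lists of related work in the cell. The 56 probe sets of the cytosolic ribosome had a median log2 difference of 0.03 and a median range of 1.61-fold, and the 46 of oxidative phosphorylation -0.01 and 1.64-fold, beside -0.05 and 1.93-fold for the members. Intervals within 2-fold made up 82.1% and 80.4% of these lists, beside 59.1% of the members. The lists also differ in level: 6 and 0 of their probe sets lay below the 25th percentile of all probe sets, beside 7 members. None of these contrasts between lists was tested. Normal replicate 1 was the lowest array for 25 of 56 cytosolic ribosomal probe sets (44.6%) and for 2 of 44 members (4.55%), beside 17.1% of all probe sets. It was so for 13 of 46 oxidative phosphorylation probe sets (28.3%). This array was singled out after the values were seen. The members were lowest most often on sex-reversed replicate 3, for 12 of 44 (27.3%), beside 13.9% of all probe sets. They were also highest there for 9 of 44 (20.5%), beside 15.1% of all probe sets, and their mean deviation on it was -0.0085. Sex-reversed replicate 3 was likewise singled out after the values were seen.

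Among 77 further symbols of mitochondrial translation, import and quality control, 26 genes were measured, in 30 probe sets. The means were higher in 16 and lower in 14, with a median of 0.04, and limma gave 0 calls. At an unadjusted p under 0.05 limma gave 1 probe set (3.33%), beside 4.42% of all probe sets. That was pars2.L, a mitochondrial prolyl-tRNA synthetase, with values of 5.58, 5.95 and 4.96 in normal and 5.06, 3.89 and 4.63 in sex-reversed testis. Its difference was -0.97 (95% interval -1.84 to -0.09, unadjusted p = 0.0344, adjusted p = 0.997 in limma). The outer membrane assembly gene samm50.S differed by -0.98 (95% interval -1.999 to 0.03), from 8.55, 7.71 and 7.65 to 6.47, 6.60 and 7.89. The ID of its probe set marks possible cross-hybridisation. The prohibitin gene phb.L, a scaffold of the inner membrane, differed by 0.86. It read 6.82 on normal replicate 2 and 9.42 to 9.84 on the other arrays. Normal replicate 2 was also the low array of mrpl23.S, which was picked out after the values were seen. That array was the lowest for 20.3% of all probe sets.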

How the data were processed

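Per the labels' protocols, biotin-labelled cRNA from testis went onto Affymetrix arrays of 1 colour; the titles gave the groups. The deposited table holds log2 values from RMA, which the submitters' processing notes name, with version and options not given in the sources used here. RMA corrects background, gives all arrays a shared distribution and summarises probes per probe set, so a difference is one relative to most other genes. The log2 scale was read from the range of values, 1.93 to 14.4, and 0 columns of other samples were present. No detection calls were used.

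Every probe set was fitted with limma 3.58.1 in R 4.3.3 (lmFit and eBayes), for sex-reversed minus normal. Tests were two-sided, and p-values were adjusted after Benjamini and Hochberg over the full table of 11485 probe sets, at a threshold of 0.05. The fit was tested on simulated data, in which 200 of the 11485 probe sets were changed, in near equal numbers by log2 differences of 1, 2 and 3. The noise was normally distributed, with the moderated variances of the fit. In these data the fit called 13.9% of log2 differences of 1, 86.8% of those of 2 and 97.7% of those of 3. The real data gave 0 calls and hold single arrays far from the rest, so these shares may be too high for them. The lack of calls therefore says little about 2-fold differences. Members and lists were chosen with earlier results of these data known. Values were named for the members with the 10 smallest unadjusted p-values in each direction, the 8 widest ranges, the extremes of each role group, the outer membrane, factor and protease members and the further readings of those genes, which made 32 of 44. The 3 related genes with the largest absolute difference were named too. Alternatives used a block for the replicate number, other normalizations, filters, variance models and array weights. Others removed probe sets marked _x_at, _s_at or _a_at, or left out each array in turn. No hybridisation or scan batch is given in the sources used here. The array number, 3 per group, limits the precision. No gene coordinates or sequences were used here.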

Additional observations from a re-analysis of the deposited data

How the results depend on the processing

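Called members stayed at 0 under all 11 other settings, with any 1 array left out and at a threshold of 0.1. Over all probe sets calls rose from 0 to 2 with median centring, 2 with array weights, 2 at a threshold of 0.1, and 1 each with a further quantile normalization, the filter at the median level and removal of probe sets marked _x_at, _s_at or _a_at. With 1 array left out the calls ran from 0 to 6, the 6 without sex-reversed replicate 3. Members at an unadjusted p under 0.05, 3 higher and 2 lower, became 1 higher and 2 lower both with trended variance and without moderation. Such counts need not hold the same members: without moderation only mrps34.S was shared with the main fit. The filter at the 25th percentile left 1 higher and 1 lower, and that at the median 2 higher and 1 lower. With 1 array left out they ran from 1 to 3 higher and 0 to 3 lower (0 lower without normal replicate 3). Both filters took out mrps34.S, 1 of the 2 lower members, whose mean level lay below the 25th percentile. The cause of the other changes was not tested. The members' median difference ran from -0.12 (without sex-reversed replicate 2) to -0.028 (without sex-reversed replicate 3).

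Of the 32 named members' values under the 11 other settings, 335 kept their sign and 4 changed it. These were pmpcb.S (-0.083), tomm22.L (0.0023) and timm10.L (0.0078) with array weights and pmpcb.L (0.0017) with quantile normalization, all near 0 at the start. With 1 array left out, 22 of all 44 members changed sign in at least 1 case. The share over all probe sets was not computed, and a difference near 0 changes sign easily. Among the named members 22 of 192 values changed sign. Their ranges were -1.02 to 1.08 for mrps7.L, -0.21 to 0.22 for tomm40.S, -0.30 to 0.071 for timm8b.S, -0.22 to 0.16 for pmpcb.S, -0.21 to 0.17 for tomm22.L, -0.27 to 0.70 for mrpl43.L and -0.31 to 0.19 for timm10.L. They were -0.91 to 0.18 for mrpl24.L, -0.076 to 2.25 for mrpl23.S, -0.13 to 0.86 for mrpl3.S and -0.24 to 0.12 for pmpcb.L.

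Same-numbered deviations correlated at -0.007, -0.025 and 0.139 across probe sets, and 2 of 6 arrays went best with their own number. With 3 arrays per group these values cannot exclude that equal replicate numbers share a batch. With the replicate number as a block there were 0 calls, 0 members called, and 2 higher and 2 lower members at an unadjusted p under 0.05. Arrays per group and unmeasured signal over background limit all values.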
